A study of Mus musculus with 12 samples.

Results

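Chemokines are small secreted proteins that guide migrating cells, and they are named by the spacing of the conserved cysteines near their start: CC (Ccl genes), CXC (Cxcl genes, Pf4 and Ppbp), CX3C (Cx3cl1) and XC (Xcl1). They act on receptors of the G protein-coupled family (Ccr, Cxcr, Cx3cr1 and Xcr1), while atypical receptors (Ackr genes and Ccrl2) bind or clear ligand without the usual G protein signal. In the retina the best known pairs are Cx3cl1, made by neurons, with Cx3cr1 on microglia, and Cxcl12 with Cxcr4, a pair that guides blood vessels and progenitor cells. The genes were taken by symbol from the deposited gene table, as every name built from Ccl, Cxcl, Ccr, Cxcr or Ackr with a number and at most 1 letter, together with Cx3cl1, Cx3cr1, Xcl1, Xcr1, Ccrl2, Pf4 and Ppbp. This gave 64 of 57073 gene models, of which 41 encode ligands and 23 receptors.

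The samples were whole retinas of C57BL/6 mice at postnatal day 17, in 12 poly-A RNA libraries. The normoxic group (6 libraries) came from mice in normoxic air, and the OIR group (6 libraries) from mice with oxygen-induced retinopathy, raised for a time in 75% oxygen according to the labels. There, high oxygen removes part of the retinal capillaries, and abnormal vessels grow after the return to room air. The labels name no genetic alteration, and they leave out whether each library is a different animal, so p-values rest on spread among libraries that can be technical.

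Library totals ranged from 17361979 to 21594618 counts, and the rod photoreceptor markers summed to 37960 to 46010 CPM, as in retina. CPM are counts scaled to library size with TMM, a factor that corrects for differences in library composition. Normoxic replicates 1 to 3 stood apart from normoxic replicates 4 to 6 over the whole table, and in several members. The comparison was therefore repeated within each set of replicate numbers, while the main test over all 12 libraries has no term for the sets. In whole tissue, fewer cells of a type and less RNA per cell cannot be told apart.

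Of the 64 genes, 24 had enough counts to enter edgeR's quasi-likelihood test (about 10 counts in at least 6 libraries, Benjamini-Hochberg adjustment over 18275 genes). A further 34 had counts below this filter, 19 of them with at least 20 counts over the 12 libraries, and 6 had none. Of the 24 tested, 10 were called higher in OIR at an adjusted p of 0.05 (16.2% of all tested genes were), 4 lower (14.8% of all tested genes were) and 10 neither way. Ccl2, Ccl12, Cxcl10 and Pf4 entered the test through the OIR libraries alone, since no normoxic library reached the filter, and so had to differ. Among the 20 others, 6 were called higher and 4 lower. All 6 OIR libraries lay above all 6 normoxic ones in 10 tested members (9.47% of all tested genes did) and below them in 2 (6.6% of all tested genes did). Without the 4 genes that passed through OIR alone, whose separation the filter fixed, these numbers were 6 and 2 of 20. The median log2 fold change of the tested members was 0.19, beside -0.0079 over all tested genes.

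**Figure D1:**
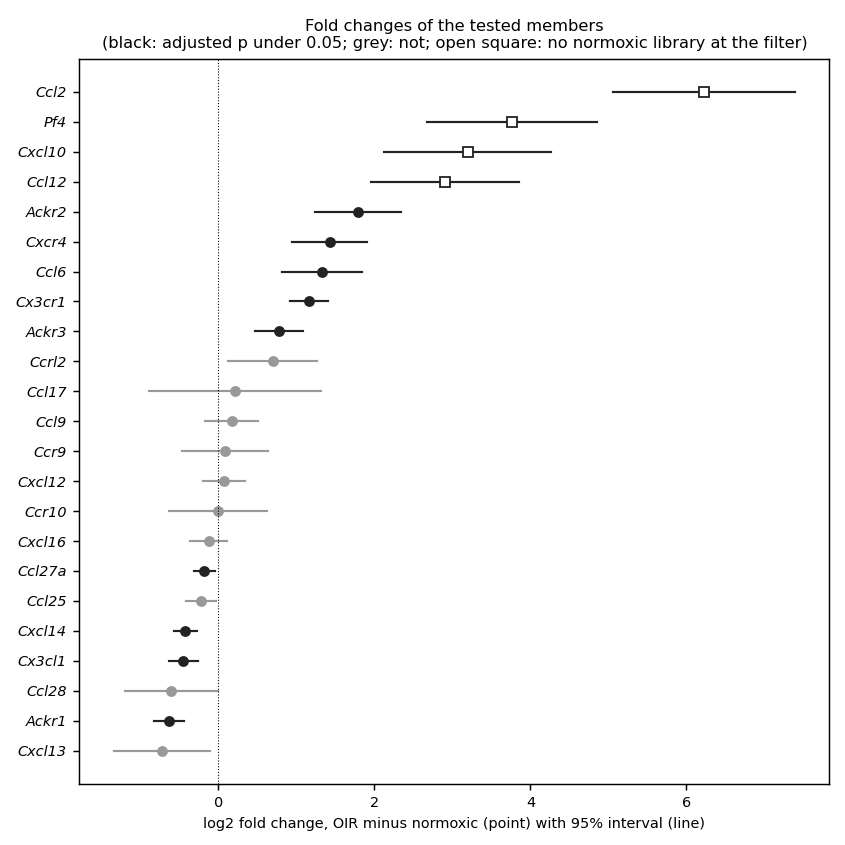
Fitted log2 fold changes of 23 of the 24 tested members, OIR minus normoxic (horizontal axis), as points with 95% intervals as lines, ordered by size. Black marks an adjusted p under 0.05 and grey the rest, and open squares mark the 4 members for which no normoxic library reached the filter. Ccl2 lies highest at 6.23 and Cxcl13 lowest at -0.73.

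The start regions of 4 CXC ligand genes are shown because 3 of them, Cxcl1, Cxcl2 and Cxcl3, are neighbours on chromosome 5 that share 1 element in front of the gene but differ in counts, and Cxcl10 holds related elements beside an interferon-type one. Bases run 5′ to 3′ in the gene's direction and end just before the RefSeq transcription start in build GRCm38.p6. Capitals mark matches to the kappaB consensus of NF-kB, a transcription factor of inflammation, and in Cxcl10 also the motif GAAANNGAAA, a core of interferon response elements.
Cxcl1, plus strand, chr5:90891115-90891244: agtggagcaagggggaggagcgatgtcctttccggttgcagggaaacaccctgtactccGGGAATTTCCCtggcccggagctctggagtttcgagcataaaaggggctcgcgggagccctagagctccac
Cxcl2, plus strand, chr5:90903769-90903898: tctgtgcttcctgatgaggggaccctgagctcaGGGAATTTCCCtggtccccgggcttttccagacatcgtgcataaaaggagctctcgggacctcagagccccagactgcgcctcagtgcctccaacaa
Cxcl3, plus strand, chr5:90785971-90786100: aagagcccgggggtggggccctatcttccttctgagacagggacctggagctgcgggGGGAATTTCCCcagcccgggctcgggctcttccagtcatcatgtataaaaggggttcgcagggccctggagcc
Cxcl10, minus strand, chr5:92348890-92349139: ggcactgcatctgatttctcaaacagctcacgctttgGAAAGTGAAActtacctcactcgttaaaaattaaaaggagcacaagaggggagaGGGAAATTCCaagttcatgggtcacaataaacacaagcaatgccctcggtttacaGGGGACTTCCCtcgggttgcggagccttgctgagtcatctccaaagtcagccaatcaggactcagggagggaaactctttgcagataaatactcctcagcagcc

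Matches were sought on both strands in windows of 300 bases (250 before to 50 after the start), overlapping matches included, in the 49 members found in the RefSeq promoter table. The kappaB consensus was in at least 1 window of 13 members (Ackr2, Ccl1, Ccl20, Ccl27a, Ccl9, Ccr1, Ccr3, Ccr6, Ccrl2, Cxcl1, Cxcl10, Cxcl2 and Cxcl3), and of 9.55% of 27025 genes. GAAANNGAAA was in windows of 3 members (Ccl19, Cxcl10 and Cxcl14), and of 3.99% of all genes. The hypoxia-response core, ACGTG or GCGTG, was in windows of 27 members and of 46.7% of all genes. A match is only a run of letters: Cxcl3 carries the element and had 1 count in each group, while Ccr1 and Ackr2 carry it and had OIR libraries above all normoxic ones.

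A block of CC ligands on chromosome 11 (81926397 to 82196516 in build GRCm39) holds, in order, Ccl2, Ccl7, Ccl11, Ccl12, Ccl8 and Ccl1. These genes, among them the monocyte attractants Ccl2 and Ccl7, were near absent in normoxic retinas. Summed over these 6 genes, the normoxic libraries held 0 to 5 counts each and the OIR libraries 41 to 100. That was 15 against 461 counts, a ratio of 30.5 per library count (95% counting interval 18.3 to 54.9). Intervals of this kind are exact, and they cover counting error only. In each of Ccl2, Ccl7, Ccl11 and Ccl12, every OIR library lay above every normoxic library.

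Ccl2 encodes the main monocyte attractant. It had 2 normoxic counts, both in replicate 3, against 33, 49, 42, 40, 24 and 19 counts in OIR replicates 1 to 6, a ratio of 103 (28.0 to 853; edgeR adjusted p = 1.2e-07). Ccl12, a close relative that acts on the same receptor Ccr2, had 1, 5, 1, 0, 3 and 3 normoxic counts and 15, 22, 21, 23, 11 and 11 OIR counts. Its ratio of counts was 7.85 (95% counting interval 4.40 to 15.3, edgeR adjusted p = 7.0e-05). Both Ccl2 and Ccl12 passed the filter through the OIR libraries alone, and so had to be higher.

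Ccl7 and Ccl11 fell below the filter and are given as counts. Ccl7, a further monocyte attractant, had 0 counts in every normoxic library and 8, 9, 12, 14, 5 and 7 in OIR. Set against a floor of 3 counts over the normoxic group, this was at least 18.2-fold higher, and the exact 95% counting interval began at 14.3. Ccl11, or eotaxin, which attracts eosinophils, likewise had 0 normoxic counts and 19, 19, 4, 21, 16 and 3 in OIR, at least 27.1-fold higher by the same floor, with a counting interval from 21.5. OIR replicates 3 and 6 were low for Ccl11, although replicate 3 was not low for Ccl2 or Ccl7. In edgeR's test without an expression filter, over 34120 genes, the adjusted p was 9e-06 for Ccl7 and 3e-06 for Ccl11. Ccl8 had 13 counts in OIR replicates 1, 3 and 4 and none in the normoxic group (0.032 in the test without a filter), and Ccl1 had 1 count.

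Without the filter, 21 members were called higher (8.96% of the genes in that test were) and 3 lower (7.6% were). Among them were 11 of the 34 members with counts below the filter, all higher, at counts where a fall could hardly be called. The 11 were Ccl3, Ccl4, Ccl5, Ccl7, Ccl8, Ccl11, Ccr1, Ccr2, Cxcl1, Cxcr3 and Ppbp. In 6 of the 34, namely Ccl3, Ccl7, Ccl11, Ccr1, Ccr2 and Cxcl1, all OIR libraries lay above all normoxic ones (5.39% of the genes in that test did). These shares are over all 34120 genes of that test, also those past the filter. No share was computed for genes below the filter alone.

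**Figure D2:**
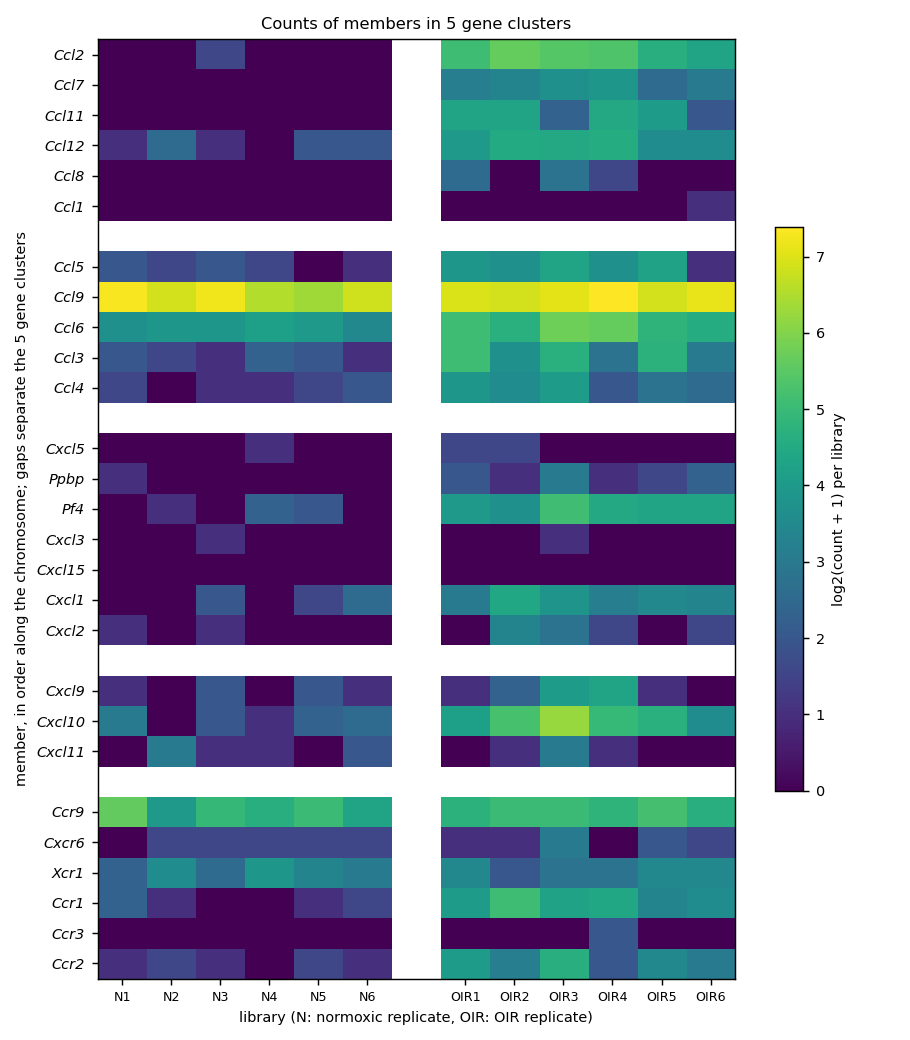
Counts of members in 5 gene clusters, drawn as log2(count + 1) per library (colour), with libraries in columns and members in rows in their order along the chromosome. The top cluster (Ccl2 to Ccl1) holds 0 to 5 counts per normoxic library and 41 to 100 per OIR library, while Ccl9 and Ccr9 are at similar colours in both groups.

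A second block of CC ligands on chromosome 11 (83416604 to 83555509, GRCm39) was less uniform. Summed over Ccl5, Ccl9, Ccl6, Ccl3 and Ccl4 it held 822 normoxic and 1247 OIR counts, most of them from Ccl9. Ccl3 and Ccl4, the macrophage inflammatory proteins, had 14 and 9 counts in the normoxic group and 109 and 55 in OIR. For Ccl3 the normoxic libraries held 3, 2, 1, 4, 3 and 1 counts and the OIR libraries 33, 12, 25, 6, 26 and 7. This was a ratio of 7.72 (95% counting interval 4.41 to 14.6; adjusted p = 5.4e-05 without a filter, edgeR). Ccl3 did not overlap between groups, and OIR replicates 4 and 6 were its lowest OIR libraries, as they were for Ccl4 together with replicate 5.

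Ccl4 had 2, 0, 1, 1, 2 and 3 normoxic and 14, 11, 16, 3, 6 and 5 OIR counts. Its ratio was 6.06 (2.97 to 13.9; adjusted p = 0.004 without a filter, edgeR), and its groups met at 3 counts. Ccl5, which attracts T cells and monocytes, had 3, 2, 3, 2, 0 and 1 normoxic counts and 14, 12, 19, 12, 18 and 1 in OIR, a ratio of 6.85 (3.62 to 14.3; adjusted p = 8.9e-04 without a filter, edgeR). OIR replicate 6 lay within the normoxic range of 0 to 3 counts, apart from the other 5. Ccl6, a ligand of Ccr1, was at 0.741 ± 0.125 CPM in normoxic and 1.86 ± 0.539 CPM in OIR retinas (mean ± SD, n = 6). It rose 2.51-fold (edgeR adjusted p = 3.8e-04), with all OIR libraries above the normoxic ones.

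Ccl9, also a ligand of Ccr1 and the most abundant gene of this block, did not pass the test. Its level was 4.38, 6.24 and 8.46 CPM (lowest, median and highest library) in normoxic and 6.16, 6.87 and 8.79 CPM in OIR retinas, and the groups overlapped. The log2 fold change was 0.17 ± 0.16 (SE), with a 95% interval of -0.17 to 0.51 and an edgeR adjusted p of 0.47. It was -0.22 within replicates 1 to 3 (adjusted p = 0.296) and 0.62 within replicates 4 to 6 (adjusted p = 0.025), since normoxic replicates 1 to 3 were at 6.28 to 8.46 CPM and replicates 4 to 6 at 4.38 to 6.20 CPM.

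None of the remaining CC ligands was called higher, with or without the filter. Ccl27a, a skin-type ligand of Ccr10, was the most abundant CC ligand per length, at 19.3 ± 1.73 FPKM (fragments scaled to gene length and library size, as deposited) in normoxic and 16.9 ± 1.48 FPKM in OIR retinas. Its fall by 0.18 on the log2 scale lay at the threshold (edgeR adjusted p = 0.0488), and the adjusted p ranged from 0.018 to 0.333 over the alternatives. The call was lost on leaving out any 1 of normoxic replicates 1 to 4 or OIR replicates 2 to 6 (adjusted p up to 0.126). The groups overlapped, at 40.6 to 52.3 CPM against 35.7 to 45.4 CPM, and reads may be shared with near-identical copies of the gene.

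Ccl25, a gut and thymus chemokine, was at 13.9 ± 1.2 CPM in normoxic and 11.9 ± 1.30 CPM in OIR retinas (log2 fold change -0.22 ± 0.09 SE, edgeR adjusted p = 0.0815). The mucosal chemokine Ccl28 had medians of 1.56 CPM in normoxic and 0.954 CPM in OIR retinas (edgeR adjusted p = 0.117), with OIR replicate 6 at 2.10 CPM and the other OIR libraries at 0.635 to 1.03 CPM. Without OIR replicate 6, Ccl28 was called lower, by a log2 fold change of -0.90 (edgeR adjusted p = 0.012). Ccl17, a ligand of Ccr4, was at 0.431 ± 0.333 and 0.499 ± 0.170 CPM (adjusted p = 0.801), with normoxic replicates 5 and 6 at 1 and 0 counts and the other 4 at 9 to 15.

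Of the CC ligands with few counts, Ccl22 had 3, 1, 1, 4, 1 and 5 normoxic and 3, 3, 1, 2, 4 and 3 OIR counts. Ccl21b had 5, 4, 1, 4, 2 and 0 normoxic counts and 5 OIR counts, all of them in replicate 6. The Ccl21 genes are near-identical copies, so their counts are uncertain. Ccl19, Ccl20, Ccl21a, Ccl21d, Ccl24 and Ccl27b had 9, 2, 4, 0, 0 and 0 normoxic counts and 4, 2, 5, 1, 5 and 2 OIR counts. The 5 counts of Ccl24 were all in OIR replicate 3. Ccl26 had no count.

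Among CXC ligands, Cxcl10 and Cxcl9 are induced by interferon and act on Cxcr3, a receptor of activated T cells. Cxcl10 had 7, 0, 3, 1, 4 and 5 counts in the normoxic libraries and 17, 37, 75, 30, 25 and 11 in OIR, so that every OIR library was above every normoxic one. The ratio of counts was 9.66 (95% counting interval 6.09 to 16.2; edgeR adjusted p = 9.6e-05). Cxcl10 passed the filter through the OIR libraries alone, and so had to be higher. Its level varied 0.623 to 3.45 CPM among OIR libraries, highest in replicate 3 and lowest in replicate 6. Cxcl10 and Cxcl11 both lie within Art3 on the other strand, whose mean count was 63.8 in normoxic and 93.5 in OIR libraries (edgeR adjusted p = 0.0528).

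Cxcl9 had 1, 0, 3, 0, 3 and 1 normoxic counts and 1, 4, 16, 19, 1 and 0 OIR counts, so that OIR replicates 3 and 4 held most of its 41 counts, and it was not called without a filter (edgeR adjusted p = 0.077). Cxcl11, the third ligand of Cxcr3, had 0, 7, 1, 1, 0 and 3 normoxic and 0, 1, 7, 1, 0 and 0 OIR counts. Cxcr3 itself had 1 normoxic count, in replicate 2, and 13, 2, 6, 1, 0 and 1 in OIR, a ratio of 22.8 (3.70 to 939; adjusted p = 0.016 without a filter, edgeR), with most counts in replicates 1 and 3.

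The neutrophil-attracting CXC ligands, whose start regions are printed above, were low. Cxcl1 had 0, 0, 3, 0, 2 and 5 counts in normoxic and 7, 20, 13, 8, 10 and 9 in OIR libraries, without overlap. Its ratio was 6.64 (95% counting interval 3.40 to 14.5; adjusted p = 0.0024 without a filter, edgeR). Cxcl2 had 2 normoxic counts, in replicates 1 and 3, and 0, 9, 6, 2, 0 and 2 in OIR (adjusted p = 0.08 without a filter), and Cxcl3 and Cxcl5 had at most 4 counts in a group. Their receptor Cxcr2 had 0 and 5 counts, and Cxcr1 none. Of 8 neutrophil markers the 1 tested did not pass, S100a8 and S100a9 had 9 and 16 normoxic and 39 and 55 OIR counts, Mpo was at 0 in all libraries, and the summed level was 2.80 to 4.11 CPM in normoxic and 3.17 to 5.84 CPM in OIR.

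Pf4 and Ppbp, which lie between these genes on chromosome 5, are stored in platelets, and Pf4 is also made by macrophages. Pf4 had 0, 1, 0, 4, 3 and 0 normoxic counts and 15, 12, 34, 21, 19 and 19 OIR counts, which is 14.9 times as many (95% counting interval 7.31 to 35.2; edgeR adjusted p = 2.1e-05). Ppbp had 1 and 18 counts, at least 1 in each OIR library (adjusted p = 0.026 without a filter, edgeR). The groups did not overlap for Pf4, which passed the filter through the OIR libraries alone and so had to be higher, but did for Ppbp.

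Neither tested platelet marker of 8 passed: Itga2b was at 5.38 ± 1.05 CPM in normoxic and 4.51 ± 0.804 CPM in OIR retinas (edgeR adjusted p = 0.237). The platelet markers, Ppbp among them, summed to 7.09 to 9.59 CPM in normoxic and 6.06 to 9.67 CPM in OIR, with Gp1bb at 0 in all libraries. Of the macrophage markers, Mrc1 had 6 normoxic and 373 OIR counts. The sum of the 10 monocyte and macrophage markers, the family member Ccr2 among them, was 27.2 to 32.0 CPM in normoxic and 42.1 to 72.2 CPM in OIR. Of the 6 tested, 5 rose and Lyve1 fell by 0.36 on the log2 scale, but Mrc1 and F13a1 passed the filter through the OIR libraries alone and so had to be higher. Beside this and the later marker lists, 16.2% of all tested genes were called higher and 14.8% lower. The part of these cells in the rise of Pf4 and the CC ligands was not tested.

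None of the remaining CXC ligands was called higher over all 12 libraries. Cxcl14, a chemokine of epithelia and neurons, was at 38.1 ± 1.92 FPKM in normoxic and 28.2 ± 3.41 FPKM in OIR retinas. In CPM its libraries were at 66.6, 68.4 and 75.0 (lowest, median, highest) in normoxic and 41.2, 52.5 and 59.8 in OIR, without overlap. It fell by 0.42 ± 0.07 (SE) on the log2 scale (edgeR adjusted p = 2.0e-04), by 0.56 within replicates 1 to 3 and by 0.29 within replicates 4 to 6.

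Cxcl16, a membrane-bound ligand of Cxcr6 whose gene overlaps Zmynd15 on the other strand over 552 bases, was at 14.7 ± 1.97 and 13.4 ± 2.03 CPM (edgeR adjusted p = 0.437). Its log2 fold change was -0.39 within replicates 1 to 3 (adjusted p = 0.0146) and 0.14 within replicates 4 to 6 (adjusted p = 0.519). Cxcl13, a B cell attractant, was at 1.01 ± 0.229 CPM in normoxic and 0.612 ± 0.238 CPM in OIR retinas (log2 fold change -0.73 ± 0.29 SE, edgeR adjusted p = 0.0678). It was called lower without normoxic replicate 2 or OIR replicate 6, with adjusted p-values down to 0.024. Cxcl15 and Cxcl17 had no count.

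**Figure D3:**
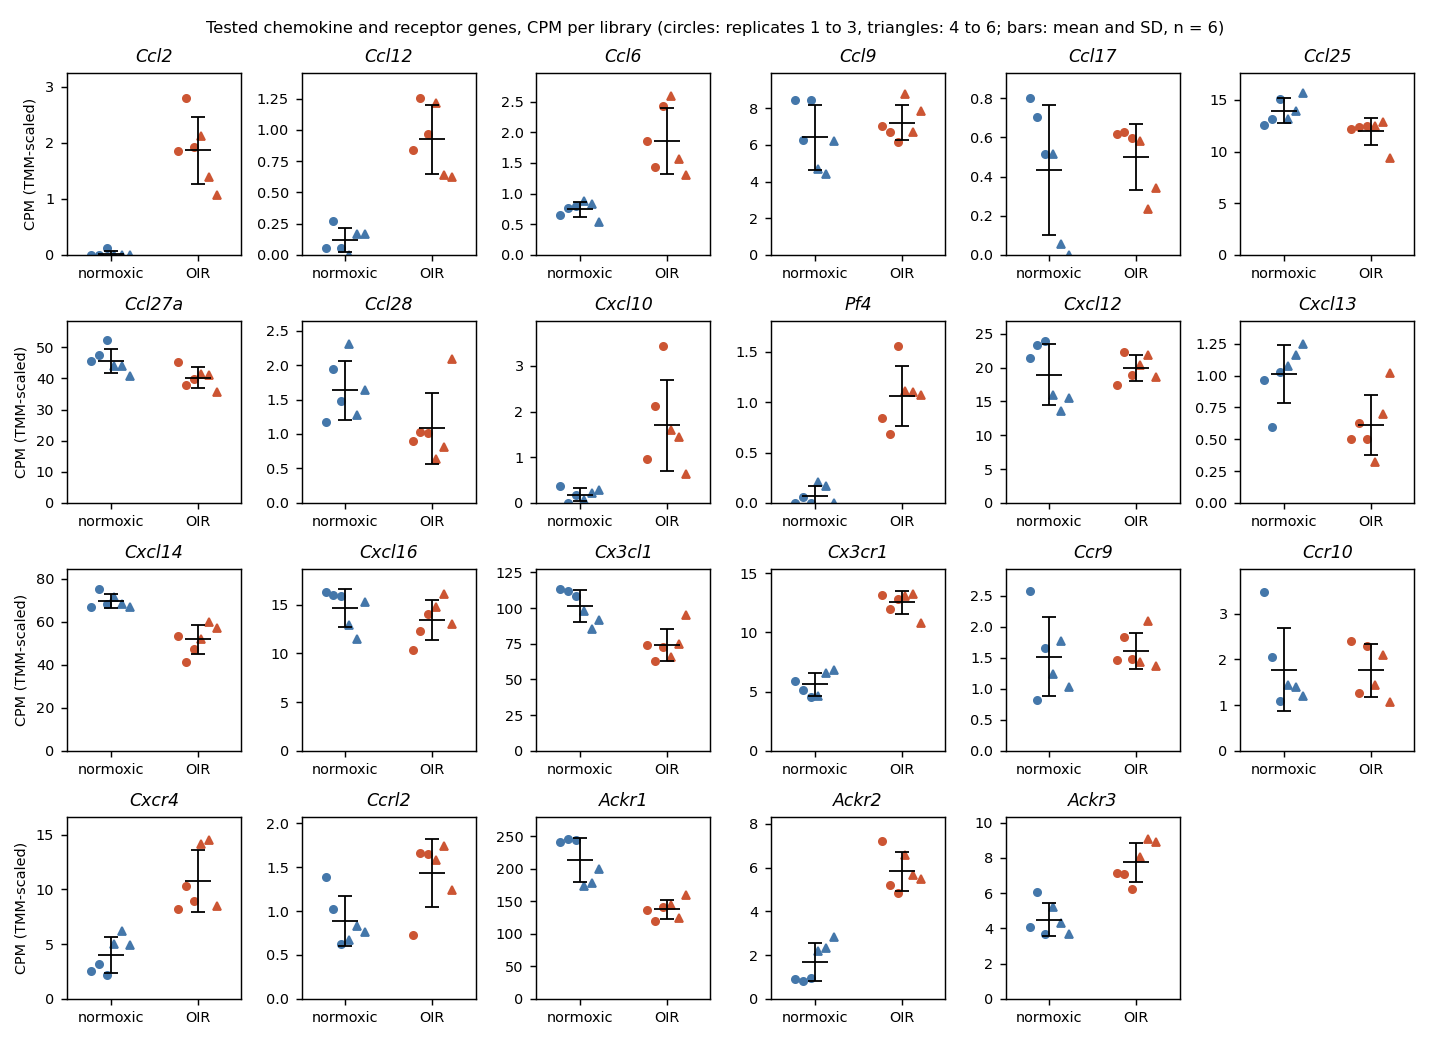
Level of 23 of the 24 tested members in CPM (vertical axes, from 0) in the 6 normoxic and 6 OIR libraries. Circles are replicates 1 to 3, triangles replicates 4 to 6, and bars the mean and SD. Cx3cr1, Cxcr4, Ackr2 and Ackr3 show OIR libraries all above the normoxic ones, while the circles and triangles of normoxic Cxcl12 do not meet.

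The Cxcl12 axis moved at its receptors and not detectably at its ligand. Cxcl12 was at 18.9 ± 4.48 CPM in normoxic and 19.9 ± 1.91 CPM in OIR retinas, a log2 fold change of 0.07 ± 0.13 (SE) with a 95% interval of -0.19 to 0.34 (edgeR adjusted p = 0.709). Normoxic replicates 1 to 3 were at 21.4 to 23.9 CPM and replicates 4 to 6 at 13.6 to 15.97 CPM. The OIR libraries at 17.5 to 22.3 CPM lay above all of the latter and overlapped the former. The log2 fold change was -0.23 within replicates 1 to 3 (adjusted p = 0.0859) and 0.44 within replicates 4 to 6 (adjusted p = 0.0108), which have opposite signs.

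Cxcr4, the signalling receptor of Cxcl12, a marker of endothelial tip cells and leukocytes, was at 2.17, 4.05 and 6.21 CPM (lowest, median, highest) in normoxic and 8.19, 9.63 and 14.5 CPM in OIR libraries. All OIR libraries were above the normoxic ones. It rose 2.68-fold (log2 1.42 ± 0.23 SE, edgeR adjusted p = 1.0e-04), with a log2 fold change of 1.80 within replicates 1 to 3 and 1.21 within replicates 4 to 6. Ackr3, the atypical receptor that clears Cxcl12, was at 4.50 ± 0.946 CPM in normoxic and 7.75 ± 1.12 CPM in OIR retinas. It rose 1.72-fold (edgeR adjusted p = 4.4e-04), again without overlap. Its log2 fold change was 0.57 within replicates 1 to 3 and 0.98 within replicates 4 to 6, so of these 2 receptors Cxcr4 had the larger change in each set, a difference that was not tested. Vessel markers were higher beside them: 7 of 8 endothelial markers rose and 1 did not pass (median log2 fold change 1.04), and 7 of 7 markers of pericytes and smooth muscle rose (median 1.43). Of all tested genes, 16.2% were called higher. Of the glial markers, 4 of 5 for astrocytes rose, while for Muller glia Sox9 and Slc1a3 rose and Abca8a, Aqp4, Rlbp1 and Glul fell. The part of these cells in the rise of Cxcr4 and Ackr3 was not tested.

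The CX3C pair went in opposite directions. Cx3cl1, or fractalkine, a membrane-anchored neuronal ligand that calms microglia, was the most abundant CX3C, XC or CC ligand per length, at 25.9 ± 2.91 FPKM in normoxic and 18.8 ± 2.61 FPKM in OIR retinas. It fell by 0.45 ± 0.09 (SE) on the log2 scale (edgeR adjusted p = 7.8e-04). OIR replicate 6 at 95.1 CPM lay within the normoxic range of 85.5 to 113 CPM, and the other 5 OIR libraries at 63.0 to 74.7 CPM lay below it. The fall was 0.67 within replicates 1 to 3 (adjusted p = 1.4e-08), while within replicates 4 to 6 the log2 fold change was -0.23 and not past the test (adjusted p = 0.133). A fit that includes the level of lens crystallin genes gave -0.31 (adjusted p = 0.0519), and of the 6 tested lens markers 4 fell and 2 did not pass. All 8 lens markers, with Lim2 at 0, summed to 5.57 to 48.1 CPM in normoxic and 1.11 to 14.7 CPM in OIR. Of 5 tested markers of pigment epithelium, Rlbp1 fell and 4 did not pass. Beyond the fit with the lens level, the part of lens RNA in the Cx3cl1 result was not tested.

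Cx3cr1, the microglial receptor of Cx3cl1, was at 4.51, 5.52 and 6.86 CPM (lowest, median, highest) in normoxic and 10.8, 12.97 and 13.3 CPM in OIR libraries. The groups were far apart, and OIR replicate 6 was the lowest OIR library. It rose 2.24-fold (log2 1.16 ± 0.12 SE, edgeR adjusted p = 5.4e-07), by 1.29 and 1.04 within the sets of replicates. The gene model spans other genes on both strands, so that part of its counts is less certain. Among those on the same strand, Csrnp1 averaged 57.5 normoxic and 95.8 OIR counts per library (log2 fold change 0.74). The more abundant Gorasp1 averaged 624 and 631 (log2 fold change 0.012).

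Markers of neurons and microglia are given beside this pair. Of 6 rod markers, Pde6a rose, Pde6b fell and 4 did not pass. Of 6 ganglion cell markers, Nefl and Thy1 fell and 4 did not pass, and their sum was 620 to 851 CPM in normoxic and 446 to 655 CPM in OIR. Of 8 homeostatic microglia markers, 5 rose, among them Fcrls, Olfml3, Sall1 and Gpr34, and P2ry12, Tmem119 and Siglech did not pass. Their sum was 36.9 to 48.2 CPM in normoxic and 65.4 to 83.5 CPM in OIR. Whether either change takes part in the Cx3cl1 or Cx3cr1 result was not tested.

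Receptors of the inflammatory CC ligands were low but higher in OIR. Ccr1, a receptor of Ccl3, Ccl5, Ccl6 and Ccl9, had 4, 1, 0, 0, 1 and 2 normoxic and 16, 33, 18, 20, 9 and 11 OIR counts, which is 13.3 times as many (95% counting interval 6.49 to 31.5; adjusted p = 8e-06 without a filter, edgeR). Ccr2, the receptor of Ccl2, Ccl7 and Ccl12 on inflammatory monocytes, had 1, 2, 1, 0, 2 and 1 normoxic and 16, 8, 24, 3, 10 and 7 OIR counts, 9.63 times as many (4.43 to 24.9; adjusted p = 3.1e-04 without a filter, edgeR). The lowest OIR library of Ccr2 was replicate 4 at 3 counts, 1 above the highest normoxic one.

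Ccr1 and Ccr2 lie in a block on chromosome 9 with Ccr9, Cxcr6, Xcr1 and Ccr3, none of which was called. Ccr9, a gut-homing receptor whose gene model spans several other genes, was at 1.51 ± 0.634 and 1.61 ± 0.288 CPM (edgeR adjusted p = 0.844). Xcr1, a dendritic cell receptor, had 4, 11, 5, 14, 9 and 7 normoxic and 10, 3, 6, 6, 10 and 10 OIR counts, and its ligand Xcl1 had none. Cxcr6, which lies within Fyco1 on the other strand, had 0, 2, 2, 2, 2 and 2 normoxic and 1, 1, 7, 0, 3 and 2 OIR counts. Ccr3, the eotaxin receptor, had 0 and 3 counts in all, too few to compare.

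Ccr10, the Ccl27a receptor, was at 1.77 ± 0.902 and 1.76 ± 0.574 CPM (log2 fold change -0.0096, 95% interval -0.64 to 0.62), but its whole model lies within Cntnap1 on the other strand and its counts are uncertain. Ccr7, Cxcr5, Ccr4, Ccr6 and Ccr8 are receptors of lymphocytes and dendritic cells. Ccr7 had 2, 3, 4, 0, 0 and 2 normoxic and 1, 0, 1, 1, 7 and 2 OIR counts. Cxcr5 had 4, 2, 0, 2, 4 and 5 normoxic and 0, 1, 0, 1, 2 and 7 OIR counts. Ccr4 had 0 and 2 counts, Ccr6 1 and 0, and Ccr8 none. Lymphocyte markers were low as well. The T and NK cell markers summed to 1.22 to 1.83 CPM in normoxic and 1.76 to 2.76 CPM in OIR, with Cd3e at 0 and 6 counts, and the B cell markers to 1.37 to 2.33 and 1.85 to 3.17 CPM. In each of these 2 lists, the 1 tested gene did not pass.

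The atypical receptors diverged as counted, with the fall of Ackr1 uncertain for the reason given below. Ackr2, which scavenges inflammatory CC ligands, rose 3.46-fold (log2 1.79 ± 0.26 SE, edgeR adjusted p = 3.8e-05). Its normoxic libraries held 17, 15, 17, 43, 42 and 52 counts and its OIR libraries 129, 91, 105, 124, 98 and 97, so that normoxic replicates 4 to 6 stood between normoxic replicates 1 to 3 and OIR. The log2 fold change was 2.67 within replicates 1 to 3 and 1.27 within replicates 4 to 6. Ccrl2, which binds chemerin and presents it to other cells, was at 0.885 ± 0.286 and 1.44 ± 0.387 CPM (edgeR adjusted p = 0.0593), with OIR replicates 1 and 6 within the normoxic range at 0.729 and 1.246 CPM. Without OIR replicate 1 it was called higher (adjusted p = 0.021), as it was without normoxic replicate 1. Ackr4, which lies within Acad11 on the other strand, had 3, 10, 4, 9, 2 and 8 normoxic and 3, 7, 14, 12, 12 and 4 OIR counts.

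Ackr1, the Duffy antigen receptor of red cells and venules, had the highest level per length of all members, at 152 ± 24.2 FPKM in normoxic and 97.6 ± 9.65 FPKM in OIR retinas. Its libraries were at 173, 220 and 245 CPM (lowest, median, highest) in normoxic and 119, 139 and 160 CPM in OIR, without overlap. It fell by 0.63 ± 0.09 (SE) on the log2 scale (edgeR adjusted p = 4.0e-05), by 0.87 within replicates 1 to 3 and by 0.36 within replicates 4 to 6. Of its 1865 bases, 493 overlap the neuronal adhesion gene Cadm3 on the same strand, which averaged 5804 normoxic and 4595 OIR counts per library and had a log2 fold change of -0.34. How reads in this overlap were assigned was not stated in the labels, so both the level of Ackr1 and its fall are uncertain. The markers of endothelium and of red cells went the other way, with 7 of 8 and 4 of 4 tested genes called higher and none lower (16.2% of all tested genes were called higher and 14.8% lower). The part of these cells in the Ackr1 result was not tested.

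The family's counts were dominated by 4 genes, which are the 4 called lower. Ackr1, Cx3cl1, Cxcl14 and Ccl27a held 84.1% of all counts of the family in normoxic and 72.6% in OIR libraries. The summed level of all 64 members was 511 ± 53.0 CPM in normoxic and 419 ± 24.1 CPM in OIR retinas, at 448.7 to 565 and 376.5 to 450.2 CPM. The other 60 members summed to 81.5 ± 5.55 CPM in normoxic, at 73.7 to 86.5 CPM, and to 115 ± 8.67 CPM in OIR, at 102.5 to 126 CPM. These sums restate the calls, since the 10 members called higher are among the 60, and they carry the uncertainty of Ackr1. Without Ackr1 the family summed to 298 ± 20.1 CPM in normoxic and 281 ± 14.9 CPM in OIR, at 271.5 to 319.9 and 257 to 301 CPM, which overlap. Cxcl12, the next in abundance, was not called.

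**Figure D4:**
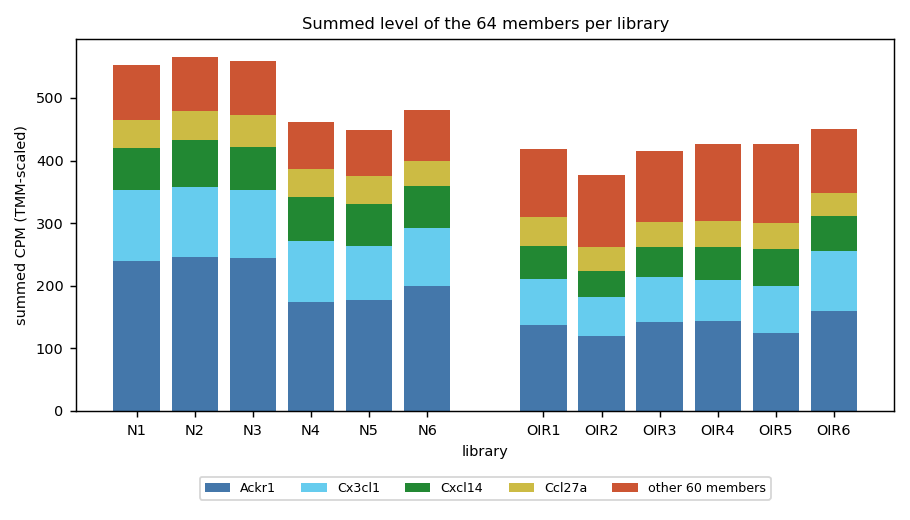
Summed CPM of the 64 members in each library (stacked bars, from 0; N1 to N6 normoxic, OIR1 to OIR6 OIR), split into Ackr1, Cx3cl1, Cxcl14, Ccl27a and the other 60 members together. The top segment of the 60 others is taller in every OIR bar, at 102.5 to 126 CPM against 73.7 to 86.5 CPM.

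Fold changes within the sets of replicate numbers differed in sign for a few members. Of 23 members tested in both sets, 18 had the same sign in each and 5 did not, namely Ccl9, Ccr9, Ccr10, Cxcl12 and Cxcl16. Of the 14 called members, 12 had a larger change within replicates 1 to 3, the exceptions being Ccl2 and Ackr3, and so had 69.5% of all 5660 called genes tested in both sets. For some of the 12, such as Ccl12 at 2.93 ± 0.60 and 2.87 ± 0.70 (SE), the values differed by less than their SE. Within replicates 1 to 3, 14 members were called higher (20.3% of all genes tested there were) and 5 lower (18.6% were). Within replicates 4 to 6, 12 were called higher (11.6% were) and 2 lower (8.36% were). The filter was applied anew in each set, so members below it over all 12 libraries could enter there. Members that entered through OIR libraries alone, Ccl2, Ccl12, Cxcl10 and Pf4 among them, had to be higher. The 10 members called higher and Ackr1 and Cxcl14 were called in the same direction within each set. The sets are parts of the same 12 libraries, so this is no independent support. The share of all called genes that were called within both sets was not computed. The labels do not say how the replicate sets differ, and the difference between sets was not tested.

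**Figure D5:**
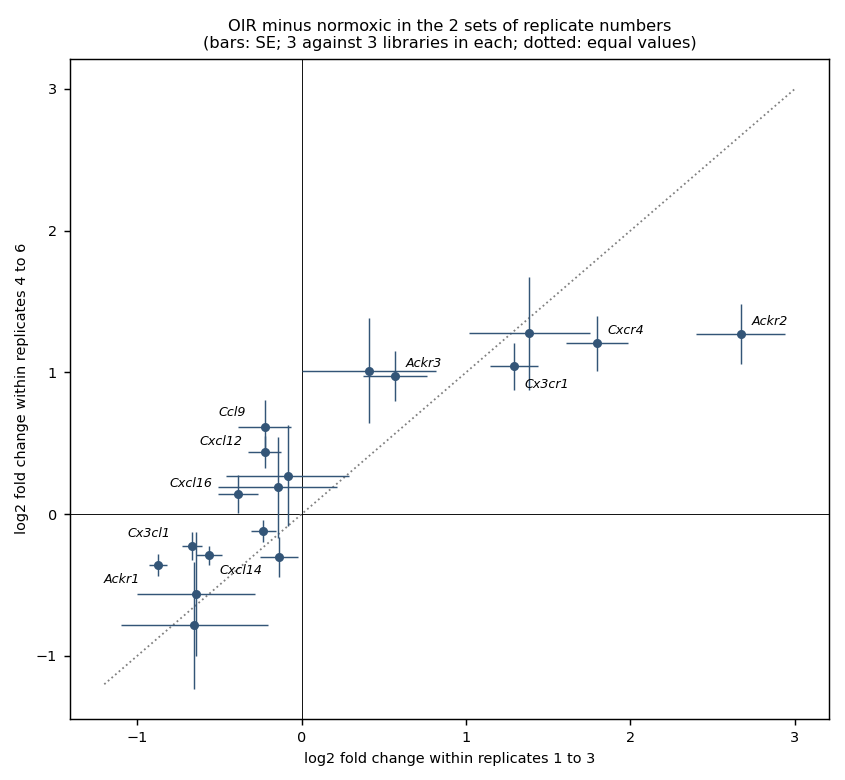
Log2 fold change of 18 tested members, OIR minus normoxic, within replicates 1 to 3 (horizontal axis) and within replicates 4 to 6 (vertical axis), with SE bars, 3 against 3 libraries on each axis. The 4 members with no normoxic library at the filter and Ccl17, not tested in the second set, are left out, and the dotted line marks equal values. Ackr2 lies right of the line (2.67 and 1.27), while Cxcl12, Ccl9 and Cxcl16 lie in the upper left, where the signs differ.

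Genes that carry or shape chemokine signals were read from lists. Of 36 genes of signal transduction, 34 were tested, 20 rose, 4 fell and 10 did not pass, with a median log2 fold change of 0.33. For this list and those that follow, the shares over all tested genes were 16.2% called higher and 14.8% lower. Gnai2, a G protein subunit through which chemokine receptors signal, was at 203 ± 7.76 CPM in normoxic and 344 ± 18.2 CPM in OIR retinas, a 1.70-fold rise (edgeR adjusted p = 7.7e-10). The leukocyte kinase gene Lyn rose 3.07-fold, Rgs2, which ends G protein signals, 1.75-fold and Prex1, a Rac activator, 1.54-fold. The 4 that fell were Elmo1 (by 0.39), Grk3 (by 0.41), Arrb2 (by 0.24) and Grk2 (by 0.15, adjusted p = 0.0488), all on the log2 scale. Without OIR replicate 2 or normoxic replicate 6, 3 genes of the 4 lists described here were called lower, against 5 with all libraries. Grk2, Grk3 and Arrb2 encode kinases and an arrestin that switch off receptors, and Elmo1 a partner of Dock proteins. Of their relatives in the list, the arrestin gene Arrb1 and Dock2 were called higher, and Grk5 and Grk6 neither way.

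Of 9 enzymes that shed or trim chemokines, 8 were tested, 5 rose, 1 fell and 2 did not pass (median log2 fold change 0.33). Mmp14 rose 2.08-fold, the lysosomal protease gene Ctss 1.90-fold, Mmp12, a macrophage elastase gene, 8.42-fold from 0.295 ± 0.222 CPM, and Mmp2 1.28-fold. Adam10, which releases Cx3cl1 and Cxcl16 from the membrane, rose 1.23-fold (edgeR adjusted p = 9.0e-04), and Adam17, which does so as well, did not pass (adjusted p = 0.172). Dpp4, which trims and inactivates Cxcl12, fell by 0.52 on the log2 scale (adjusted p = 0.0327), with overlapping groups.

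Of 15 proteoglycans and enzymes of the sugar chains that hold ligands, 8 rose, none fell and 7 did not pass (median 0.15). Sdc4 rose 1.38-fold, Gpc4 1.91-fold, Sdc3 1.16-fold and Sulf1, which edits heparan sulfate, 1.24-fold. Of 20 other chemoattractants and receptors, 13 were tested, 10 rose, none fell and 3 did not pass (median 2.03), with C5ar1 and Gpr183 past the filter through the OIR libraries alone. The growth factor receptor gene Csf1r rose 1.95-fold, its ligand Csf1 2.28-fold, the anaphylatoxin receptor gene C3ar1 8.24-fold and Cd74, a receptor of Mif, 4.87-fold. The cytokine genes Tnf, Il1b and Il6, which induce chemokines, were below the filter, at 1, 9 and 6 normoxic and 31, 25 and 1 OIR counts.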

How the data were processed

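Whole-number counts and FPKM of each gene in each library were taken as deposited, per the file headers. Trimmomatic, HISAT2 2.0.5, HTSeq and build GRCm39 are named in the submitters' processing notes, without roles or order. Annotation release and strand setting: not given in the sources used here, so reads of a gene and an antisense partner cannot be told apart.

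Counts were fitted on the whole table with edgeR 4.0.16 (R 4.3.3): filterByExpr (minimum count 10, total 15), TMM, quasi-likelihood test and Benjamini-Hochberg adjustment, threshold 0.05. Members below the filter are given as counts, with ratios per library total and exact 95% intervals, and with a fit of all genes with at least 1 count. Counts between 17361979 and 21594618 per library limit the precision of low members. The deposited FPKM were used only to compare levels between genes. No 2 libraries were merged, since each pair within a group had a chi-square of 3.05 to 15.4 for each degree of freedom. Normoxic pairs within replicates 1 to 3 or within 4 to 6 were at 3.05 to 4.08, and normoxic pairs across these sets at 11.98 to 15.4. OIR pairs were at 3.98 to 12.2, without such a gap. The fit was also run on simulated counts, drawn independently for each library and without sets of replicate numbers. That run therefore cannot vouch for the p-values given here.

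Every member is named except 1 tested member, which is counted with the others but not reported here. Members past the filter are given with the fit, those with at least 20 counts by library, and of each other list the 4 genes with the smallest adjusted p or a contrary direction. Adam17, Tnf, Il1b, Il6, S100a8, S100a9, Cd3e, Itga2b and other list genes named beside these were chosen with their values known. The members and lists were chosen with earlier results of these data known. The lists covered signalling, shedding enzymes, proteoglycans, other attractants, microglia, macrophages, neutrophils, T, NK and B cells, platelets, endothelium, pericytes, Muller glia, astrocytes, ganglion cells, rods, lens, pigment epithelium and red cells. Alternatives were other scalings and filters, DESeq2 1.42.0, blocks, a lens covariate, each set of replicates and leaving out each library.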

Additional observations from a re-analysis of the deposited data

Results flagged for a closer look

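In groups of 6 libraries, 84 groups of members with at least 20 counts were examined for a library far from the rest, and 11 were marked, where chance at 1 in 20 gives about 4.2. That rate holds for normal values and not for these low counts: a group with counts in only 1 library, as for Ccl2, Cxcr3 and Ccl21b below, is marked by construction. Of these, 5 were OIR replicate 6. It was highest for Ccl21b at 0.283 CPM (all others 0), for Ccl28 at 2.1 CPM (next 1.03), for Cx3cl1 at 95.1 CPM (next 74.7) and for Cxcr5 at 0.396 CPM (next 0.116), and lowest for Ccl25 at 9.34 CPM (next 12.2). OIR replicate 2 was highest for Cxcl1 at 1.14 CPM (next 0.597), OIR replicate 3 for Cxcl11 at 0.322 CPM (next 0.0572) and OIR replicate 5 for Ccr7 at 0.406 CPM (next 0.113). In the normoxic group, replicate 3 was the only library with Ccl2, at 0.114 CPM, and replicate 2 the only one with Cxcr3, at 0.0541 CPM. Normoxic replicate 1 was the only one without Cxcr6, at 0 CPM (next 0.103). Several of these values rest on fewer than 10 counts.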

How the results depend on the processing

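The 10 members called higher numbered 10 with median-of-ratios factors, library totals only, DESeq2, the replicate block, the set term and the lens covariate, 9 where a group mean of 1 FPKM was required, 14 and 12 within replicates 1 to 3 and 4 to 6 (20.3% and 11.6% of all genes tested there were), and 21 without an expression filter (8.96% were), which tests more low members. In each set the filter was applied anew, and members that entered through OIR libraries alone had to be higher. The 4 called lower numbered 4 with the replicate block and 2 with the lens covariate or within replicates 4 to 6, where Ccl27a and Cx3cl1 were not past the test. With the lens covariate, 1824 genes were called higher and 1318 lower, 2 pathway genes lower and 5 markers lower, and within replicates 4 to 6, 1536 genes were lower. Pathway genes called lower numbered 3 without a filter and 3 where a group mean of 1 FPKM was required (5 in the report). Leaving out each library gave 10 to 13 members higher and 3 to 5 lower, 2687 to 3083 genes higher and 2372 to 2786 lower, 40 to 45 pathway genes higher and 3 to 5 lower, and 34 to 37 markers higher and 9 to 14 lower. Sign changes were found in 6 members, none of them called in the report: Ccl17 (-0.040 with the lens covariate, -0.13 within replicates 1 to 3, -0.048 to 0.48 leaving out each library), Ccl9 (-0.22 within 1 to 3), Ccr10 (0.033 with the replicate block, 0.0074 with the set term, 0.19 within 4 to 6, -0.12 to 0.30 leaving out each library), Ccr9 (-0.083 within 1 to 3, -0.045 to 0.30 leaving out each library), Cxcl12 (-0.23 within 1 to 3, -0.0069 to 0.15 leaving out each library) and Cxcl16 (0.14 within 4 to 6); the cause was not tested. Same-numbered libraries of the groups did not deviate together (correlations -0.0342 to 0.135 over 6 pairs, and 2 of 6 normoxic libraries were nearest their own number), so the replicate block has no basis in the design. For members with few counts, depth limits what a comparison can show.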
